A study of Caenorhabditis elegans with 6 samples.

Results

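The right arm of chromosome X held 416 of the 6029 binding sites of GFP-tagged NHR-25 that the authors listed for Caenorhabditis elegans larvae of the L2 stage. A site was counted as a member when it was a peak of the combined list on X whose midpoint lay above 12.48 Mb, in coordinates of WormBase release WS220. The arm was taken to end at 17716907, the last base reached by any deposited peak on X, which makes it 5.24 Mb long. Members were then followed in the peak list of each replicate by an overlap of at least 1 bp.

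NHR-25 is the worm's receptor of the NR5 family, whose relatives are Drosophila FTZ-F1 and mammalian SF-1. Receptors of this family bind DNA as monomers. In C. elegans NHR-25 is known for its work in the epidermis, where it is needed for molting, for seam cell division and for the formation of the vulva. The chromosomes of this worm have no single centromere. Their autosomes are known to carry most essential and conserved genes in the middle, with repeat-rich, highly recombining arms on either side, and on X this contrast is weaker. In hermaphrodites, transcription from X is reduced by the dosage compensation complex.

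The series holds 3 ChIP samples, in which chromatin was precipitated with antibodies against GFP, and 3 input samples of the same extracts before precipitation. All 6 came from L2 hermaphrodites of strain OP33, grown at 20 °C on E. coli HB101 and fixed with 2% formaldehyde. All carried unc119(ed3) and the transgene wgIs33, which joins nhr-25 to a tag written as TY1 EGFP FLAG and also holds unc119, so the input animals had the same mutation and transgene. Per the labels, the transgene was made by recombineering, was brought into unc-119(ed3) worms by bombardment, and the strain was not outcrossed. The labels name no deletion of the native nhr-25. Whole larvae were used, so a peak sums over all cell types. Peak lists of the 3 ChIP samples were used, and the input samples were not analysed here. Nothing in the labels says that the replicates came from separate cultures, so the spread between them may be technical.

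The lists rank peaks by a number that the authors gave them, and 1 was taken as the strongest. Replicates 1, 2 and 3 hold 30000, 29241 and 30000 peaks, and these run far into weak signal, down to estimated false discovery rates of 0.843, 0.990 and 0.888. Each was therefore read only to its first 6029 peaks, as many as were combined, and such a shortened list is called a top list. The authors' score stops at a ceiling, where 75.4% of the combined peaks are tied, so the peak number was used as the measure of strength. The lists hold no read counts, and the depth of sequencing is unknown here. The gene table at hand, RefSeq's for assembly WBcel235, is on another build than the peaks. It places nhr-25 itself (F11C1.6) on X, but no gene was set against any peak, and no sequence of WS220 was used. The transgene adds nhr-25 sequence to the genome, and whether any member lies in that sequence was not tested.

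The strongest site of the arm lay at X:14525471-14526185 and was number 12 of the combined list. It was number 16 in replicate 1, 32 in replicate 2 and 7 in replicate 3. The next, at X:13700544-13701021, was number 17, and stood at 24, 22 and 15 in replicates 1, 2 and 3. The site at X:14790049-14790743 was number 28 and stood at 34, 21 and 26. No replicate placed any of these 3 sites below number 34, on lists of 29241 peaks or more.

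Some strong sites changed places more between replicates. One at X:16929365-16930021, number 34 of the combined list, was number 9 in replicate 3 but 68 in replicate 1 and 46 in replicate 2. Another, at X:15841018-15841377, was number 38 and was number 11 in replicate 2 but 42 in replicate 1 and 83 in replicate 3. At X:13145082-13145509 a site with number 128 was number 42 in replicate 3 but 274 and 205 in replicates 1 and 2. None of these differences took a site out of the first 300 peaks of any replicate.

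The first 20 members of the arm by combined number reached down to number 227, the site at X:13920224-13920781. Of the 20, 6 had a number of at most 100 in all replicates, and 12 a number of at most 200. The lowest place that any of them took was 319, in replicate 2. The midpoints of the matching replicate peaks lay within 50 bp of the combined midpoint in all 3 replicates for 17 of the 20, and at most 84.5 bp away. Among them were 14 sites wider than the usual 440 bp, the widest being 715 bp. These 20 were picked by their place in a list made from the same ChIP samples, so their high places in the replicates are a description and not independent evidence.

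**Figure D1:**
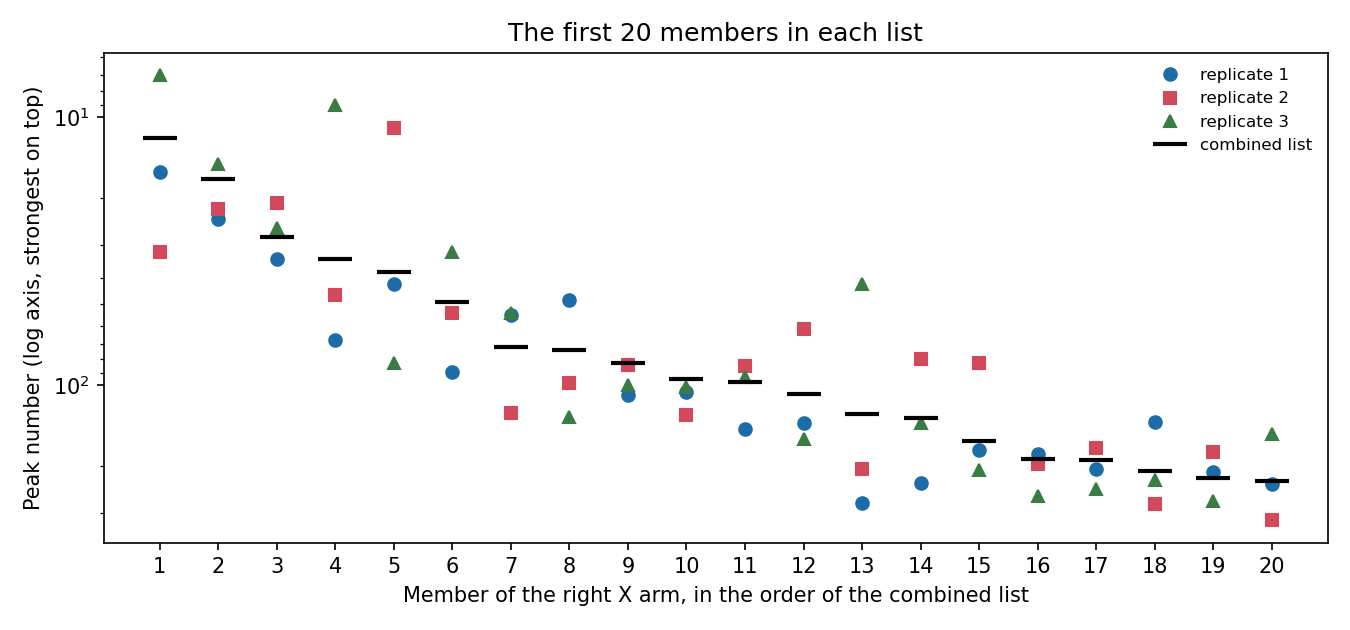
Peak number (log axis, strongest on top) of the first 20 members of the right X arm in replicates 1, 2 and 3 (symbols) and in the combined list (horizontal dashes), in the order of the combined list. All symbols lie between 7 and 319, and the 3 replicates spread widest at the members numbered 34, 38 and 128.

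Some of these strongest sites were neighbours, which was not compared with other sets of members. Of the first 20 members, 6 had another of the 20 within 10 kb. Of these, 4 lay within 6692 bp, from X:13007977 to 13014668, and were numbers 132, 74, 97 and 209 of the combined list from left to right. Whether these 4 lie at nhr-25, where the transgene would add copies, was not tested. The other 2 lay within 1862 bp, from X:15273882 to 15275743, and were numbers 49 and 95. The piece from 12.98 to 13.48 Mb held 6 of the 20, more than any other piece of 0.5 Mb. The pieces at 13.98 to 14.48 Mb and beyond 16.98 Mb held 0 of them.

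Taken by its length, the arm was richer in peaks than either the left end of X or the ends of the autosomes. The combined list had 79.4 peaks per Mb there. In the top lists of replicates 1, 2 and 3 the density on the arm was 74.3, 75.8 and 78.7 peaks per Mb (76.3 ± 2.23, SD, n = 3). The first 5.24 Mb of X, a stretch of the same length at the left end, had 58.2, 58.4 and 58.8 (58.5 ± 0.292). Every replicate was thus denser at the right end of X than at the left, and the ranges did not overlap.

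The ratio of the right arm to the left end was 1.28, 1.30 and 1.34 in replicates 1, 2 and 3 (1.30 ± 0.0316, SD, n = 3). Its departure from 1 was larger than the spread between replicates, and an exact permutation test that flips the sign of the difference within each replicate gave p = 0.25, two-sided. With 3 replicates this is the smallest p the test allows, so it cannot reach 0.05, and the same holds for each such test below. Against the middle of X, the 7.24 Mb between both ends, the ratio was 1.09, 1.06 and 1.15 (1.10 ± 0.0418; 69.3 ± 1.75 peaks per Mb in the middle; exact permutation p = 0.25). Moving the inner boundary of the arm 0.5 Mb to the right brought this ratio to 1.03 ± 0.0488 (exact permutation p = 0.5). The excess over the middle of X was therefore small and depended on where the arm is taken to begin.

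The contrast was largest with the ends of the autosomes. The first and last 5.24 Mb of the 5 autosomes, pooled, had 47.2 ± 0.670 peaks per Mb (SD, n = 3), and the right X arm was denser by 1.55, 1.63 and 1.67 times in replicates 1, 2 and 3 (1.62 ± 0.0575; exact permutation p = 0.25). The remaining autosomal middles had 77.5 ± 0.575 peaks per Mb, close to the arm. There the ratio was 0.962, 0.970 and 1.02 (exact permutation p = 0.5), and replicates fell on both sides of 1.

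**Figure D2:**
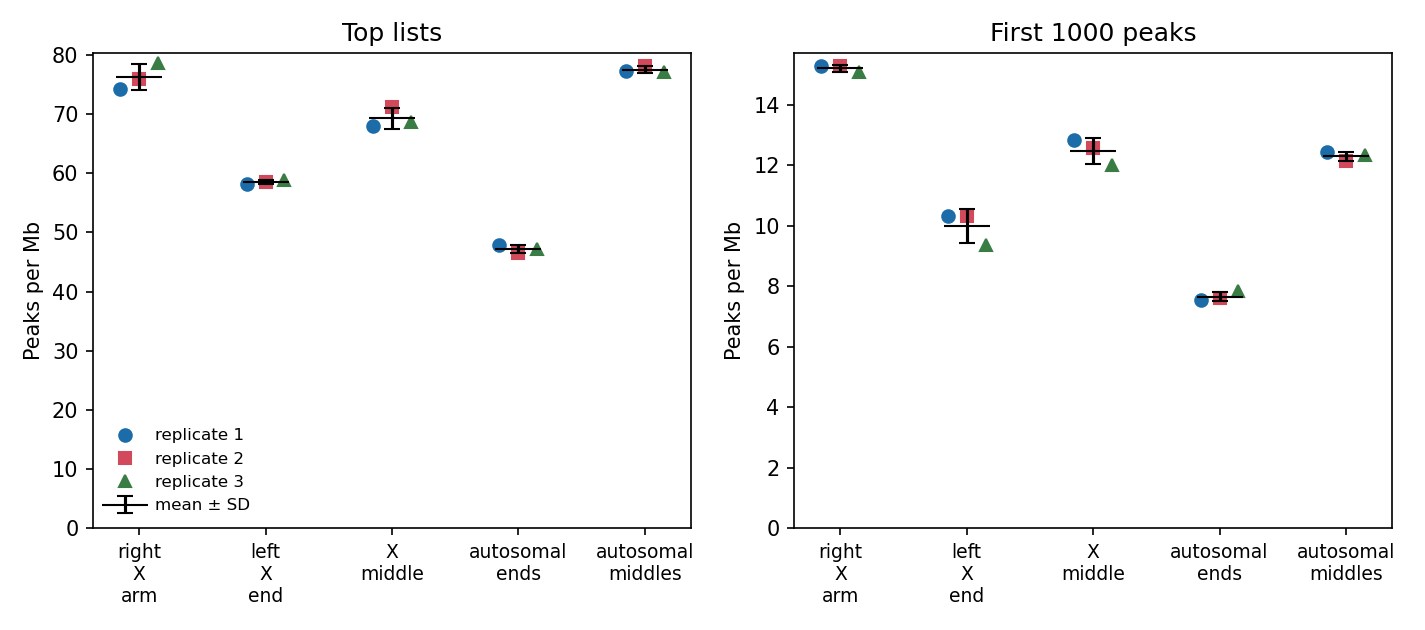
Peaks per Mb in the right X arm, the left X end, the X middle, the autosomal ends and the autosomal middles, for the top lists (left) and the first 1000 peaks (right) of replicates 1, 2 and 3 (symbols), with mean and SD. In the top lists the arm, at 76.3 ± 2.23, lies beside the autosomal middles at 77.5 ± 0.575; among the first 1000 peaks the arm lies above all other parts, at 15.2 ± 0.110.

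Among the 12 chromosome ends of this length, the right X arm was the densest in replicates 2 and 3 and the next to densest in replicate 1. The right end of chromosome III had 75.4, 73.5 and 73.7 peaks per Mb in replicates 1, 2 and 3 (74.2 ± 1.05, SD, n = 3), which overlaps the range of the X arm. The right end of II followed with 68.1 ± 2.97, and the left end of X was next with 58.5 ± 0.292. The sparsest was the right end of V with 19.4 ± 0.942. Chromosome III is the shortest, so a stretch of this length reaches further into its middle. The left end of III, of the same length, had 56.6 ± 1.92, and whether chromosome length bears on the density was not tested. The right X arm was set apart by its density from most chromosome ends but not from the right end of III.

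The share of the peaks that lay on the arm was larger among strong peaks. Of the first 100 peaks of replicates 1, 2 and 3, the arm held 8, 12 and 10. Of the first 1000 it held 80, 80 and 79, which is 8.01 ± 0.0875% of those on the 6 nuclear chromosomes (SD, n = 3), on 5.22% of their span. Over the top lists the share was 6.64 ± 0.194%, and over all deposited peaks it was 5.37 ± 0.187%. The share was thus lower at each of these depths, and over all peaks it was near that of the span.

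The ratios to the left X end and the autosomal ends were likewise larger among strong peaks, whereas the ratio to the X middle was not ordered by strength. Among the first 1000 peaks, the arm was 1.53 ± 0.0755 times as dense as the left X end, 1.22 ± 0.0333 times as dense as the X middle and 1.99 ± 0.0557 times as dense as the autosomal ends (SD, n = 3; exact permutation p = 0.25 each). Among the peaks ranked below the top lists these ratios were 0.989 ± 0.0246, 1.16 ± 0.0784 and 0.913 ± 0.0682 (exact permutation p = 0.75, 0.25 and 0.25). Against the autosomal ends the weak peaks were thus thinner on the arm in every replicate, with ratios of 0.854, 0.988 and 0.896, where the strong ones were denser. Against the autosomal middles, the ratio was 1.24 ± 0.0193 among the first 1000 peaks and 1.03 ± 0.0368 below the top lists, both above 1 in every replicate, so there it did not fall steadily with strength. Over all deposited peaks the arm was 1.05 ± 0.0176 times as dense as the left X end and 1.02 ± 0.0658 times as dense as the autosomal ends, the last with 2 of 3 replicates above 1 (exact permutation p = 0.25 and 0.75).

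Members also stood somewhat higher in the lists than other combined peaks. In replicates 1, 2 and 3, 90, 91 and 90 members overlapped a peak among the first 1000 (21.7 ± 0.139%, SD, n = 3), against 17.9 ± 0.170% of the 5613 combined peaks elsewhere. The background over the whole combined list was 18.2, 18.0 and 18.2% in replicates 1, 2 and 3. The arm held only 80, 80 and 79 of these first 1000 peaks, so some members matched the same peak. Peaks elsewhere were matched in the same way, and no share was computed with each replicate peak counted only 1 time. The difference was 3.83 ± 0.309 percentage points, positive in every replicate (exact permutation p = 0.25). It was 2.53 ± 0.646 points for the first 500 peaks and 2.12 ± 1.72 points when peaks had to share 50% of both lengths. Against the other 784 peaks of X it was 1.56 ± 0.851 points, so part of it was shared with the rest of that chromosome. Overlap with a first-1000 peak of every replicate was seen for 61 members (14.7%, exact Clopper-Pearson 95% interval 11.4 to 18.4%), with a background of 11.9%. Only 49 of the 61 were themselves numbered up to 1000 in the combined list. The others overlapped a member with a lower number and matched the same replicate peaks, so the 61 are not all separate sites. The X middle, counted in the same way, had 74 of 486 (15.2%), a share no lower than that of the arm.

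The authors' score was at its ceiling about as often on the arm as over the whole list. It was there for 312 of 416 members in the combined list (75%, exact Clopper-Pearson 95% interval 70.5 to 79.1%), with a background of 75.4%. Matching peaks were at the ceiling of replicates 1, 2 and 3 for 66.8, 48.1 and 64.2% of members, with backgrounds of 66.2, 44.5 and 63.0%. The median member had number 2966.5 in the combined list, between 12 and 6017. Numbers up to 500 were carried by 38 members, with a background of 8.29% over the whole list, and numbers up to 1000 by 79 (19.0%), with a background of 16.6%. The next classes of 1000 had 67, 64, 67 and 66 members, and 73 came from 5001 onward. Members were therefore spread over the whole list, with only a mild surplus at the top.

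Sites were not spread evenly along the arm. In pieces of 0.5 Mb from the inner boundary outward, the first held 42 members and the second, from 12.98 to 13.48 Mb, held 73. The third had 37 and the fourth, from 13.98 to 14.48 Mb, 20. Counts rose again to 52 in both pieces from 14.48 to 15.48 Mb, lay at 24 and 23 from 15.48 to 16.48 Mb, and were 39 and 33 in the pieces up to 17.48 Mb. The last piece, with a length of 0.237 Mb, held 21. The arm thus had crowded and thin parts in turn, with no steady trend towards the end of the chromosome.

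The richest piece was the same in every replicate, and the poorest of full length was not. The piece from 12.98 to 13.48 Mb had 66, 65 and 75 top peaks in replicates 1, 2 and 3. That from 13.98 to 14.48 Mb had 21, 20 and 18, and that from 15.98 to 16.48 Mb had 23, 17 and 20, which made it the poorest in replicate 2. The outer part of the arm also differed in strength. From 16.98 to 17.48 Mb, 33 members included 0 of the first 1000 combined peaks, whereas the last piece, beyond 17.48 Mb, had 6 among 21. The background was 16.6%. One of the 6, number 621 at X:17479875-17480292, lay across the edge between both pieces, with its midpoint 5.00008 Mb from the inner boundary. Both pieces were picked after their values were seen, and their difference was not tested. Divided at its midpoint, 15.1 Mb, the arm had 225, 229 and 240 top peaks in its inner part and 164, 168 and 172 in its outer part (exact permutation p = 0.25). The inner part also held 51 of the 79 members numbered up to 1000, but it had more members in all, 234 against 182 in the outer part.

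**Figure D3:**
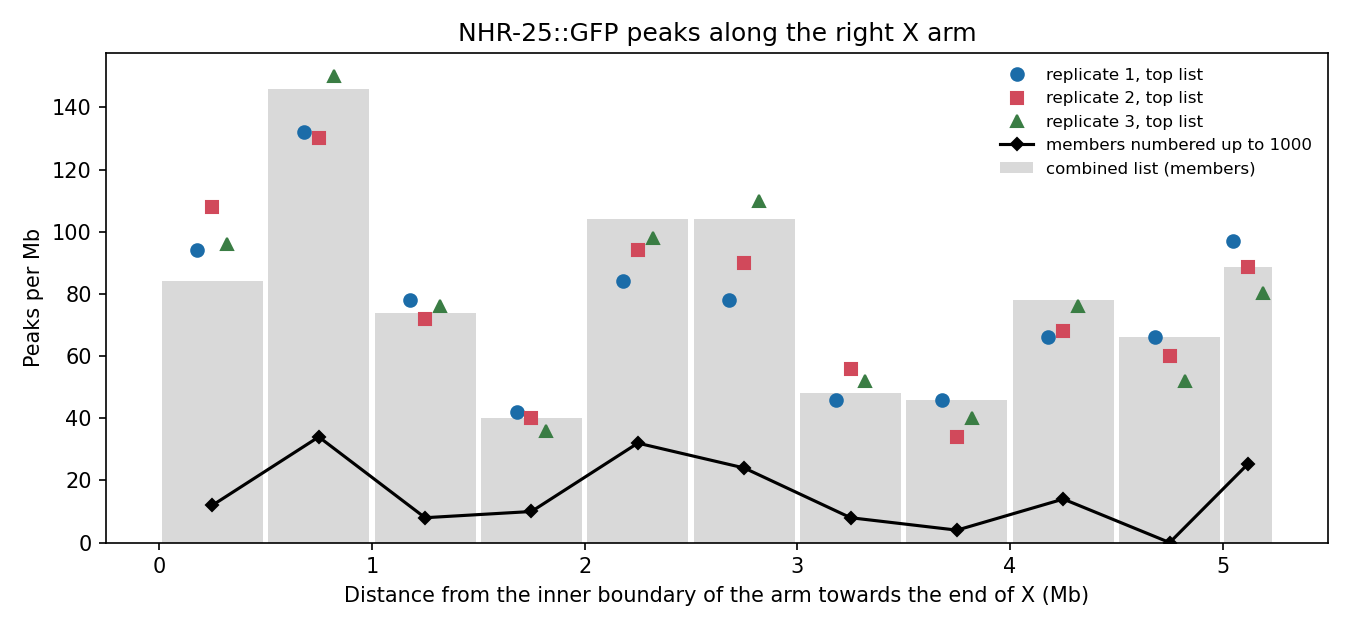
Peaks per Mb in pieces of 0.5 Mb (the last is 0.237 Mb) against distance from the inner boundary of the arm, for the members (bars), the top lists of replicates 1, 2 and 3 (symbols) and the members numbered up to 1000 in the combined list (line). The highest bar, the second piece, stands for 73 members and the lowest, the fourth, for 20.

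Members overlapping one another were joined into regions, which gave 391 on the arm. Within 2000 bp of another region's midpoint lay 178 of them (45.5%), with a background of 42.2%. In the top lists of replicates 1, 2 and 3 the share was 43.5, 44.3 and 41.4% on the arm (43.1 ± 1.48%, SD, n = 3) and 40.7 ± 0.844% elsewhere. The difference was 2.37 ± 0.764 percentage points and positive in every replicate (exact permutation p = 0.25). Against the rest of X it was 2.73 ± 3.28 points and positive in 2 of 3 replicates (exact permutation p = 0.5). In the combined list the share was 44.4% in the X middle and 47.2% in the autosomal middles, on either side of the arm's 45.5%. Without the most crowded 30 kb of the arm the difference from the rest of the series was 0.457 ± 1.20 points, but that stretch was picked for its crowding and removed from the arm alone, so a fall was fixed by the choice.

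Whether that stretch lies at nhr-25, whose sequence the transgene adds, was not tested. It ran from X:12989056 to 13016761 and held 20 regions made of 23 members, where the top lists of replicates 1, 2 and 3 had 15, 16 and 15 regions. Its strong sites lay together near its right end. That at X:13008826-13009309, number 74 of the combined list, was number 48 in replicate 1, 98 in replicate 2 and 131 in replicate 3. Its neighbour at X:13009566-13010025, number 97, was number 146, 85 and 93, and that at X:13007977-13008669, number 132, was number 232, 80 and 138. Further right, the site at X:13014202-13014668, number 209, was number 137, 278 and 225. These 4 were the only members of the stretch among the first 500 of the combined list.

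The rest of the stretch was of medium and weak sites. At X:12999491-12999930 lay number 994, which was number 891, 1367 and 1142 in replicates 1, 2 and 3. At X:13004521-13004718 lay number 913, which was number 716, 2004 and 619. In all, 15 of the 23 members were at the ceiling and 14 were in the top list of every replicate, with backgrounds of 75.4 and 56.9%. The weakest, at X:12995388-12995827, was number 5673 of the combined list, and X:12993671-12994110 was in no top list. Replicates also disagreed here on single sites. The first of the stretch, at X:12989056-12989495, was number 2245 and 1380 in replicates 1 and 3 but 12570 in replicate 2, and that at X:13005807-13005964 was number 657 and 1187 in replicates 1 and 2 but 5807 in replicate 3. The crowded stretch thus mixed strong and weak sites.

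**Figure D4:**
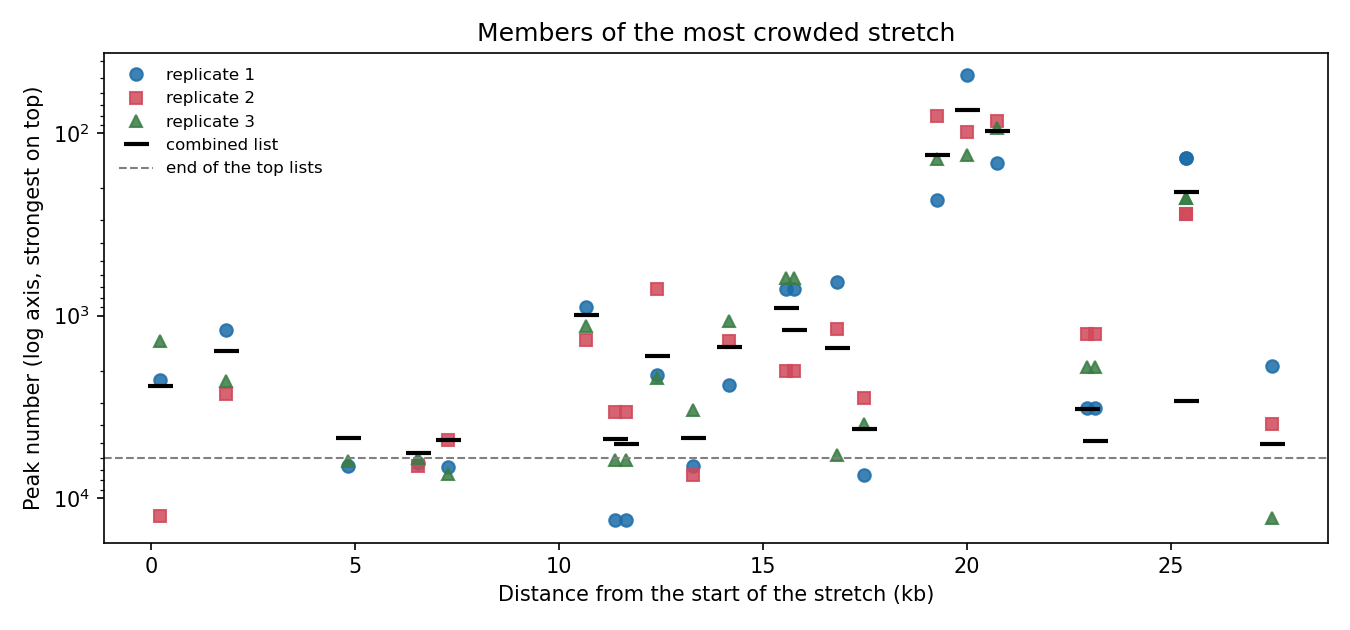
Peak number (log axis, strongest on top) of the 23 members of the most crowded stretch in replicates 1, 2 and 3 (symbols) and in the combined list (horizontal dashes), against distance from the start of the stretch in kb. Overlapping members share the replicate peak they match; the 4 sites numbered 132, 74, 97 and 209 stand above number 300 in every replicate, while several others lie near or below the end of the top lists (dashed line).

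Other crowded stretches were smaller. From X:16775280 to 16804333, 13 regions were listed, but only 1 of their members was among the first 1000 of the combined list. In every top list were 6 of 13. The backgrounds were 16.6 and 56.9%. From X:15260097 to 15284115 lay 12 regions with 14 members, of which 13 were at the ceiling, with a background of 75.4%. From X:12500778 to 12523394, next to the inner boundary, lay 11 regions with 12 members. From X:14480232 to 14509242 lay 11 members in as many regions, 6 of them among the first 1000. Stretches of similar crowding thus differed in how many strong sites they held, from 1 to 6.

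The longest stretch of the arm without a member was 141 kb, from X:14339275 to 14480231. Replicates 1, 2 and 3 had 0, 0 and 0 top peaks in it, but 16, 19 and 9 peaks in their full lists. The next were 136 kb from X:13781539 to 13917277, with 0, 0 and 1 top peaks, and 133 kb from X:17236281 to 17369354, with 0, 2 and 0. The median gap between neighbouring regions of the arm was 3.40 kb, and 7 gaps exceeded 100 kb. The longest gap ended directly at a crowded stretch, which began at X:14480232. The most isolated region, the member at X:14238241-14238680, was 58.8 kb from the nearest other region and had number 2889. The next most isolated, at X:16726790-16727369, was joined from 2 overlapping members, numbers 322 and 5185, and was 45.0 kb from the nearest. Both regions were picked after their values were seen.

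Most members were found again in each replicate. Of 416, the top lists of replicates 1, 2 and 3 held 330, 330 and 328, or 79.3, 79.3 and 78.8%, with backgrounds of 80.2, 77.8 and 78.1%. The mean was 79.2 ± 0.278% for members and 78.7 ± 1.37% for the other combined peaks (SD, n = 3), a difference of 0.492 ± 1.28 percentage points (exact permutation p = 0.75) that is smaller than the spread between replicates. Against the other peaks of X it was -0.298 ± 0.498 points (exact permutation p = 0.25). The top lists of all 3 replicates held 243 members (58.4%, exact Clopper-Pearson 95% interval 53.5 to 63.2%), with a background of 56.9%. A further 98 members were in 2 top lists, 63 in 1 and 12 in none (2.88%, with a background of 2.37%). As the combined list was made for the same series, these levels are no independent evidence for the sites.

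How often a member was found again depended on its place. All 79 members numbered up to 1000 were in every top list, as were 66 of 67 from 1001 to 2000 and 52 of 64 from 2001 to 3000. From 3001 to 4000 it was 30 of 67, from 4001 to 5000 it was 8 of 66, and beyond 5000 it was 8 of 73. Beyond 5000, numbers 5097, 5185, 5394, 5458, 5629 and 5912 overlapped a member with a lower number and matched the same peak in every replicate. From 4001 to 5000 the same held for numbers 4204, 4636, 4663, 4895, 4957 and 4970. These were therefore not found again as sites of their own. The classes from 1001 to 4000 hold such repeats too, among them numbers 1688, 1859, 1951, 2155, 3138 and 3519. Peaks elsewhere, matched in the same way, declined likewise. All 921 numbered up to 1000 were in every top list. The shares elsewhere were 98.0, 79.3, 40.8 and 15.5% in the 4 classes between 1001 and 5000 and 8.68% beyond. The arm was lower only from 4001 to 5000, with 12.1%, and in every class its interval covered the share elsewhere.

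**Figure D5:**
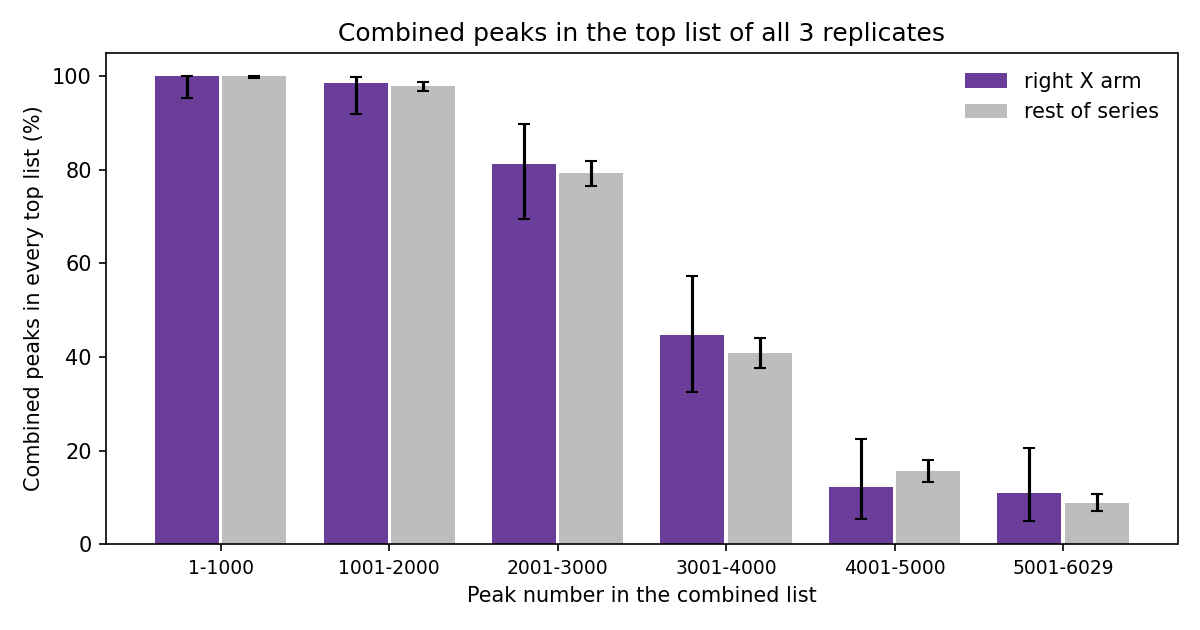
Share of combined peaks found in the top list of all 3 replicates, by peak number in the combined list, for the right X arm and the rest of the series, with exact Clopper-Pearson 95% intervals. The interval of the arm covers the share of the rest in every class. The arm's share is 100% in the first class and 11.0% in the last. Late peaks that overlap a peak with a lower number can share its match.

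When all deposited peaks of the replicates were searched, 399 members (95.9%) had an overlapping peak in every replicate, with a background of 96.0%. The other 17 members lacked a peak in a single replicate each, 6 in replicate 1, 5 in replicate 2 and 6 in replicate 3. None of the 17 was among the first 2000 of the combined list. First among them, X:14575881-14576320 had number 2807 and was number 2464 in replicate 1 and 1193 in replicate 2 and had no overlapping peak in replicate 3, whose nearest midpoint was 694 bp away. Next, X:14556355-14556794 had number 3406 and was number 1981 and 2949 in replicates 1 and 3 and was lacking in replicate 2, with the nearest midpoint at 879 bp. The sites at X:15279313-15279752 (number 3710), X:17421490-17421699 (3943) and X:13528436-13528875 (4230) were likewise lacking in replicates 1, 3 and 1. For 13 of the 17, the replicate that lacked the site had another peak with its midpoint within 1000 bp. The full lists of replicates 1, 2 and 3 held 296, 308 and 311 peaks per Mb of the arm. No background was computed for a peak this near, so the 13 do not show that these sites were shifted.

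Places in the lists went together between replicates. Spearman's rho of the peak number across members was 0.737 for replicates 1 and 2 (405 members), 0.717 for replicates 1 and 3 (404) and 0.732 for replicates 2 and 3 (405), with a mean of 0.729 ± 0.00995 (SD over 3 pairs that share replicates). Elsewhere the mean was 0.673 ± 0.00231. These are descriptions across sites that share libraries, and no p was computed. For the median member the highest of its 3 replicate numbers was 2.32 times the lowest. The widest spread was 11.5 times, at X:16930815-16931897, number 476 in replicate 3 but 2576 in replicate 1 and 5454 in replicate 2.

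That site was also the only region of at least 1000 bp on the arm, with 1083 bp. No replicate listed it as a single interval. Replicates 1 and 2 each split it into 3 peaks and replicate 3 into 2, all of at most 430 bp. Its numbers above belong to different pieces: number 2576 of replicate 1 lay at X:16930706-16931135 and number 476 of replicate 3 at X:16931423-16931740, where replicate 1 had number 9739. It lay beside X:16929365-16930021, the fourth strongest member. Of all members, 273 (65.6%, against 66.2% elsewhere) were exactly 440 bp wide, 117 were narrower and 26 were wider. The 26 wider ones had a median number of 218 and the 117 narrower ones 971, against 3986 for those of 440 bp, and all 26 wider ones were in every top list. The authors' interval thus departed from its usual width mainly at strong sites. In 7 cases the same interval was listed for 2 peaks, so that 416 members stand for 409 distinct intervals. All of these but X:15077657-15078077 are wider than 440 bp, so the count of 26 wider members takes each of them 2 times. An example is X:14790049-14790743, which carries the numbers 28 and 1951. Both numbers then match the same best peak in each replicate.

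Positions differed little between the lists. The median distance between a member's midpoint and that of its best overlapping peak was 24.8 bp in replicate 1, 29 bp in replicate 2 and 28 bp in replicate 3. Elsewhere these distances were 22, 27 and 27 bp. Over the 3 replicates the median was 17.5 bp for members numbered up to 1000 and 63 bp for those beyond 5000. Elsewhere it was 14 and 44 bp. The best peak is the overlapping one with the lowest number. A late member that overlaps an earlier one can thus be matched to that member's peak, which lies further off. The larger distance of late members comes in part from this rule, so it does not show how closely weak sites were placed.

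The inner boundary did not cut through a cluster of members. The last combined peak below it, at X:12454199-12454638, was number 2363 and stood at 4104, 2305 and 2098 in replicates 1, 2 and 3, and before it came X:12449206-12449645, number 4947, and X:12425476-12425915, number 5089. The first above it, at X:12500778-12501160, was number 389 and stood at 446, 374 and 423, followed by X:12509359-12509560, number 1835, and X:12509935-12510374, number 5092. The last of these was number 1852 and 2137 in replicates 2 and 3 but had no overlapping peak in replicate 1.

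Some strong peaks of the replicates on the arm had no counterpart in the combined list. Of the top lists' 389, 397 and 412 peaks on the arm, 61, 70 and 77 overlapped no combined peak in replicates 1, 2 and 3 (15.7, 17.6 and 18.7%), with backgrounds of 19.4, 21.2 and 20.6% over the whole top lists. At the ceiling of all 3 replicates were 158 peaks of replicate 1 on the arm, and 5 of them (3.16%) overlapped no combined peak, with a background of 1.77% (37 of 2096). With 5 peaks this difference was not tested, and they are given as a description. The first, at X:12480585-12480692, just inside the boundary, was number 797 in replicate 1, 603 in replicate 2 and 807 in replicate 3, and the nearest combined midpoint was 20.3 kb away. The peak at X:12975558-12975987 was number 856, 1977 and 406, and that at X:13104835-13105264 was number 1604, 1012 and 960. Those at X:17151063-17151492 and X:15866102-15866531 had their best places at 722 in replicate 1 and 2019 in replicate 2. Every one of the 5 thus outranked, in all 3 replicates, members that the combined list retained.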

How the data were processed

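Deposited peak lists of 3 ChIP samples were read together with 1 combined list. Per the file headers, coordinates are WormBase WS220, and per the source field of the deposited rows, peaks were called with SPP via IDR (a procedure that scores irreproducible discoveries). Aligner, filters, controls, IDR threshold and merging of replicates: not given in the sources used here. A score deposited by the authors for each peak was read from its values as a −log10 of a false discovery rate. Its ceilings are 3.96 in the combined list and 3.93, 3.73 and 3.92 in replicates 1, 2 and 3. The peak numbers run without a gap and list the ceiling first. Below it they follow the falling score in the main (Spearman's rho -0.972 over combined peaks). In places the combined score rose with the number, and was 3.48 at number 4560 but 3.51 at number 4848. Order within the ceiling could not be checked against the score.

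Of the samples, 3 were ChIP and 3 input, grouped by title; nothing was tested between these groups. Where members overlapped several peaks of a replicate, the lowest number was taken. The left X end and autosomal ends have the length of the arm. Differences were tested by exact two-sided permutation tests over the 3 replicates (SciPy 1.17.1, pandas 2.3.3, Python 3.11.15), which measure the spread between replicates only; intervals cover counting error only. Overlap and density functions were tested on simulated lists. Named regions follow a rule: the first 20 members by number, those at the boundary, in the most crowded stretch, the longest gaps, broad regions, the first 5 lacking in a replicate, and ceiling peaks absent from the combined list; further crowded stretches, isolated and discordant members were chosen after their values were seen. The members and all lists were chosen with earlier results of these data known. Replicate lists shared at most 131 identical intervals, so none was a copy of another.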

Additional observations from a re-analysis of the deposited data

How the results depend on the processing

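For 8 results, 70 alternatives were run, and 58 left the direction as it was, or an untested value within its spread or within 1.5 times a count; tested values often moved beyond the spread between replicates, and 3 replicates cannot pass the threshold, so this says nothing about stability. Those without the crowded stretch for density and strong members, for peaks below the top lists, for presence against the rest of X, and with distinct intervals were chosen after seeing the data. Density relative to the left X end and to the autosomal ends turned to 0.989 and 0.913 for peaks below the top lists, and was 1.05 and 1.02 with all deposited peaks and 1.53 and 1.99 for the first 1000; the cause was not tested. Without the crowded stretch the 3 densities were 1.25, 1.06 and 1.55 times the left X end, X middle and autosomal ends. With 1 replicate left out they ranged from 1.29 to 1.32, 1.08 to 1.12 and 1.59 to 1.65. The difference in presence in the top lists turned to -0.00818 points with all deposited peaks and -0.298 against the rest of X, with values of -0.0601 (without replicate 2) to 1.20 when single replicates were dropped. Rank agreement moved to 0.467 with the authors' score, 0.712 in the first 3014 combined peaks, 0.613 at a reciprocal overlap of 50% and 0.715 over distinct intervals, with values of 0.717 to 0.737 when single replicates were dropped. Members in every top list numbered 156 at that overlap, 399 with all deposited peaks and 273 to 279 with 1 replicate left out. These directions were fixed by the settings, since a stricter overlap can only lower this count and longer lists or fewer replicates can only raise it. No paired analysis was possible because the groups with shared numbers are ChIP and input, and no input was used here; parts of the genome were compared within each replicate. Depth is unknown, and ties at the ceiling limit a ranking by the authors' score.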
